A study of Mus musculus with 47 samples.

Results

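Gene expression in the medial prefrontal cortex (PFC), the frontal cortical area that takes part in the control of drinking, was compared between mice withdrawn for 8 h from chronic intermittent ethanol vapor (CIE) and air-exposed control mice (Ctrl). The comparison used 11 of the 47 arrays of the series, 5 from CIE mice and 6 from Ctrl mice, taken by the group named in each sample title. All mice were adult male C57BL/6J, with 1 mouse per array. CIE mice spent 16 h/day for 4 days in vapor chambers held at 10 to 13 mg ethanol per liter of air and then 7 days without ethanol, over 4 cycles, and were given ethanol at 1.6 g/kg with pyrazole at 1 mmol/kg by i.p. injection before each exposure. Ctrl mice breathed air in the same type of chamber and received saline with pyrazole at the same dose, so the alcohol dehydrogenase inhibitor was common to both groups, and ethanol intake was forced rather than chosen. The titles also give a repeat group: 3 CIE and 3 Ctrl mice at 8 h belonged to repeat group 1, and 2 CIE and 3 Ctrl mice to repeat group 2, which held mice of no other time point. The remaining 36 arrays covered 0 h, 72 h and 7 d after the last exposure (12 arrays each, with 6 CIE and 6 Ctrl mice) and entered the fit to estimate the spread.

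The hours after the end of chronic ethanol exposure are a period of acute withdrawal, a state of raised neuronal excitability. Withdrawal engages the hypothalamic-pituitary-adrenal axis, and the corticosterone it releases acts in the brain through the glucocorticoid receptor, a transcription factor that switches on genes such as Fkbp5, Sgk1 and Plin4. Innate immune signaling, protein folding in the endoplasmic reticulum (ER), sterol synthesis and activity-dependent transcription are further systems known to respond to ethanol in the brain.

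Levels are log2 values from robust multi-array averaging (RMA) on Affymetrix Mouse Genome 430 2.0 arrays, so a difference of 1 is a doubling. Each gene was read from its brightest probeset, and differences are CIE minus Ctrl at 8 h from a limma fit with repeat group as a term, given with their standard error (SE). A change passed when its p, adjusted over all 45037 probesets by the Benjamini-Hochberg method, was at most 0.01. Every adjusted p below comes from limma.

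One array stood apart from the rest. CIE mouse 15, of repeat group 2, had a mean correlation of 0.967 with the other 46 arrays, where the next lowest array of the series had 0.985 and the median was 0.992. Mouse 15 held the highest or lowest level among the 11 mice at 51.9% of genes, against 22.7% for the other CIE mouse of its repeat group, mouse 23, and 9.9% to 21.4% for each of the other 9. The median residual SD at 8 h was 0.159 in CIE mice, 0.126 without mouse 15 and 0.120 in Ctrl mice. In the groups of the other times it ran from 0.126 to 0.160. Results are therefore given with and without this mouse. Ctrl mouse 66 carried high levels of interferon-stimulated transcripts, and its values are given beside several of the genes concerned or among the flagged results.

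With all 11 mice, 3004 probesets passed, or 6.67% of those tested, 1938 higher and 1066 lower in CIE. Without mouse 15 the number was 922, and without Ctrl mouse 32 it was 1961. With no repeat group term it was 1527, and the authors had already adjusted the deposited values for repeat group. The 922 split into 600 higher and 322 lower, and 802 probesets passed both ways in the same direction. On brightest probesets, 750 of 18193 genes were higher (4.12%) and 434 lower (2.39%). Without mouse 15, 226 were higher (1.24%) and 152 lower (0.835%), and 330 genes passed in both fits, 212 higher and 118 lower. The difference had the same sign in both repeat groups for 1183 of the 1184 genes that passed. These genes were selected by a fit that pools the same mice of both repeat groups, so this agreement is not independent support. The difference was larger in repeat group 2 for 828 of the 1184, with a median size of 0.31 in repeat group 1 and 0.46 in repeat group 2. For the 330 genes that passed in both fits the median sizes were 0.48 and 0.41. Most changes were small: the median size over the 1184 genes was 0.40, and 13 genes moved by more than 1, of which 11 rose. All 5 CIE mice lay above all 6 Ctrl mice at 3.86% of genes and below them at 2.76%. The median difference over all genes was 0.02, and it was -0.02 in repeat group 1 and 0.07 in repeat group 2.

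The largest rises were those of a lipid droplet protein gene, 2 immune genes and a glycine receptor subunit gene. Plin4, which encodes a coat protein of lipid droplets, was at 8.84, 9.63 and 8.49 in CIE mice 40, 51 and 69 of repeat group 1 and 8.62 and 8.34 in mice 15 and 23 of repeat group 2 (the order kept below). The Ctrl mice ran from 5.66 to 7.09 (median 6.68). No CIE mouse overlapped the Ctrl range, and the difference of 2.15 ± 0.32 (adjusted p = 2.91e-05) was 2.17 in repeat group 1, 2.11 in repeat group 2 and 2.10 without mouse 15 (adjusted p = 0.000378). H2-Ab1, the beta chain of an MHC class II molecule, which presents peptides to helper T cells, was at 7.70, 6.65, 8.94, 8.21 and 8.52 in the CIE mice, with Ctrl mice from 5.52 to 6.46 (median 5.71). The groups did not overlap here either, with a difference of 2.16 ± 0.45 (adjusted p = 0.00107) and of 2.14 without mouse 15 (adjusted p = 0.00653). Ccl12, a chemokine that attracts monocytes, was at 6.63, 6.25, 8.13, 8.02 and 7.20 in the CIE mice, and the Ctrl mice ran from 5.13 to 6.58 (median 5.38). Mouse 51 lay within the Ctrl range, whose highest value was that of Ctrl mouse 66, and mouse 40 just above it. The rise was 1.67 ± 0.32 (adjusted p = 0.000468), and 1.43 without mouse 15 (adjusted p = 0.00784).

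**Figure D1:**
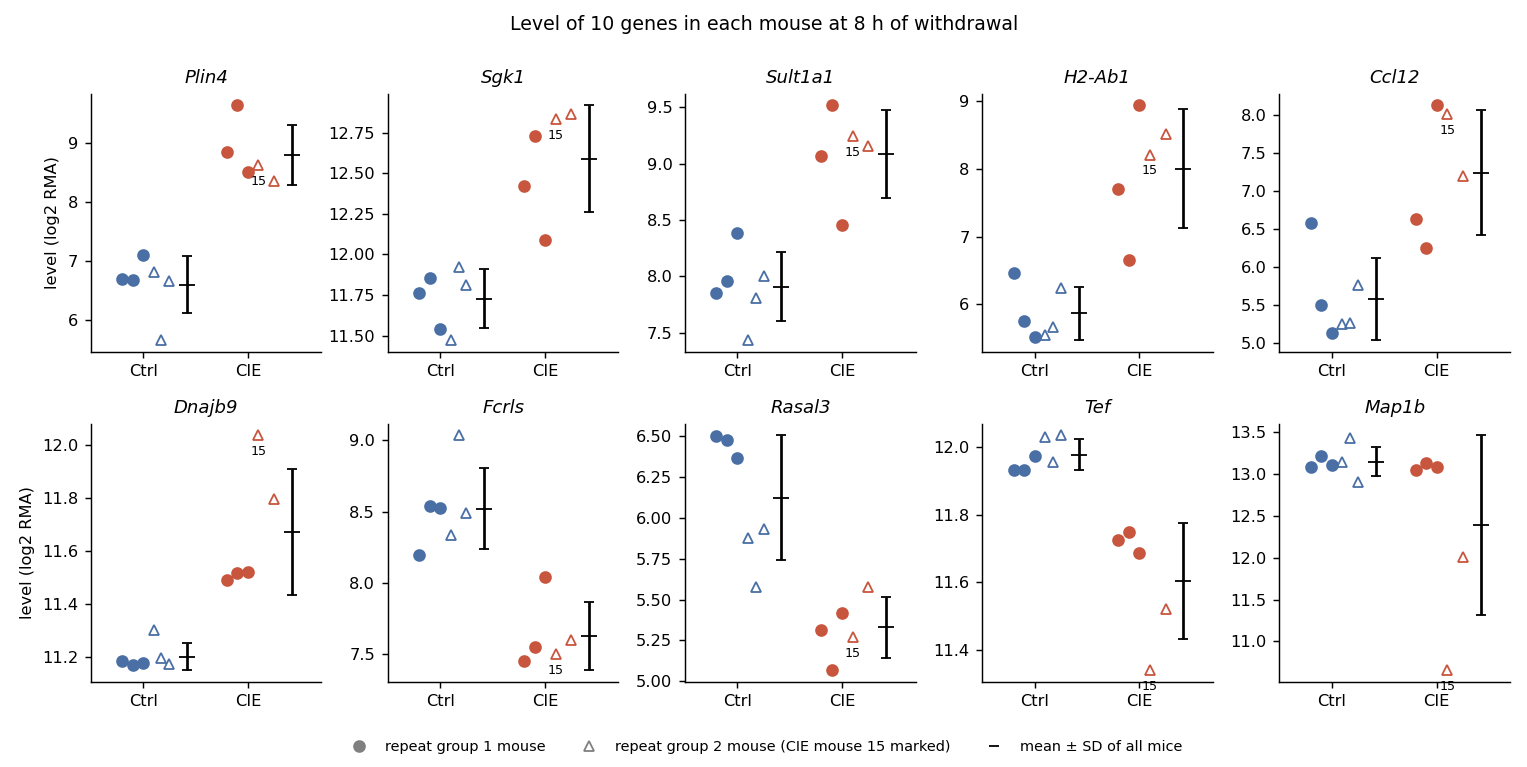
Level (log2 RMA) of 10 genes in each of the 11 mice at 8 h, with filled circles for repeat group 1, open triangles for repeat group 2 and the mean ± SD of all mice at the right of each group. Plin4, Sgk1, Sult1a1, H2-Ab1, Dnajb9, Fcrls and Tef show no overlap between Ctrl and CIE mice, whereas for Map1b the 3 CIE mice of repeat group 1 lie among the Ctrl mice and mouse 15 is at 10.66.

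Glra3, the alpha 3 subunit of the glycine receptor, an inhibitory chloride channel, was at 7.35, 7.23, 7.26, 8.40 and 7.98 in the CIE mice against 5.56 to 7.06 (median 6.15) in Ctrl, a rise of 1.47 ± 0.30 (adjusted p = 0.00104). Without mouse 15 its difference was 1.34 with an adjusted p of 0.0102, just short of passing. Zfp189, a zinc finger transcription factor, rose by 1.21 ± 0.22 (adjusted p = 0.000242), with nearly equal differences of 1.20 and 1.22 in the repeat groups, although mouse 69 at 6.47 lay below the highest Ctrl mouse at 6.71. Sult1a1, a sulfotransferase of phenolic compounds, was at 9.06, 9.52, 8.45, 9.24 and 9.16 in the CIE mice, all above the Ctrl mice at 7.44 to 8.39 (median 7.91). Its rise of 1.17 ± 0.24 held without mouse 15 (1.10, adjusted p = 0.00975). Spry4, a feedback inhibitor of receptor tyrosine kinase signaling, rose by 1.01 ± 0.19 and by 0.77 without mouse 15 (adjusted p = 0.00915). The uncharacterized transcripts Gm34996 (1.22 ± 0.23), 2310002L09Rik (1.08 ± 0.11), 9130024F11Rik (0.98 ± 0.18) and 4930570G19Rik (0.94 ± 0.18) rose and also passed without mouse 15. The 4 other members of the 15 largest rises lost the call without it: Cbln4, a secreted synapse organizer, went from 1.31 to 1.02 (adjusted p = 0.0722), Nptx2, a pentraxin that clusters AMPA receptors, from 1.02 to 0.80 (adjusted p = 0.0476), Aox1, an aldehyde oxidase, from 0.92 to 0.71 (adjusted p = 0.0424), and Ripply2, a transcriptional corepressor, from 0.89 to 0.34 (adjusted p = 0.113).

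Of the 15 largest falls, Fcrls, Rasal3, Dsp and Gm10638 passed without mouse 15. Fcrls, an Fc receptor-like protein restricted to microglia within the brain, was at 7.45, 7.55, 8.04, 7.50 and 7.60 in the CIE mice and Ctrl mice ran from 8.19 to 9.03 (median 8.51). It fell by 0.89 ± 0.16 (adjusted p = 0.00021) with no overlap. Rasal3, a Ras GTPase-activating protein of blood and immune cells, fell by 0.82 ± 0.14 (adjusted p = 0.000209), with differences of -1.19 in repeat group 1 and -0.37 in repeat group 2, where the highest CIE and the lowest Ctrl mouse met at 5.58. Dsp, which encodes the junction protein desmoplakin, was low on the array in both groups, 3.98 to 5.22 (median 4.69) in Ctrl, and fell by 0.81 ± 0.17 (adjusted p = 0.00162), almost wholly in repeat group 1, where the difference was -1.34 against -0.14 in repeat group 2. The predicted gene Gm10638 fell by 0.78 ± 0.14. Gkn3, Gm11627 and Ighm, the heavy chain of immunoglobulin M, fell by 0.91, 0.89 and 1.01, with differences of -0.90, -0.83 and -0.97 without mouse 15, sizes close to the full fit, but adjusted p-values of 0.036, 0.0145 and 0.0333.

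The other 8 falls were larger in repeat group 2 and did not pass without mouse 15. Map1b, a microtubule-associated protein of neurons, was at 13.05, 13.13, 13.08, 10.66 and 12.01 in the CIE mice, and Ctrl mice ran from 12.90 to 13.43 (median 13.13). The CIE mice of repeat group 1 lay within the Ctrl range, and the difference was -0.04 there and -1.82 in repeat group 2. The chromatin insulator protein gene Ctcf (-0.18 and -1.62), the phosphodiesterase gene Pde1a (-0.14 and -1.76), the kinesin gene Kif3b (-0.17 and -1.57) and Zfp638 (-0.15 and -1.73) had the same split between repeat groups 1 and 2. Creg2, which encodes a secreted glycoprotein, Mageb16 and Tcf7l2, a transcription factor of the Wnt pathway, were lower in both repeat groups, at -0.51, -0.54 and -0.52 in the first and -1.87, -1.43 and -1.13 in the second, with adjusted p-values of 0.0346, 0.126 and 0.127 without mouse 15. In all, 14 of these 30 genes passed without mouse 15.

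**Figure D2:**
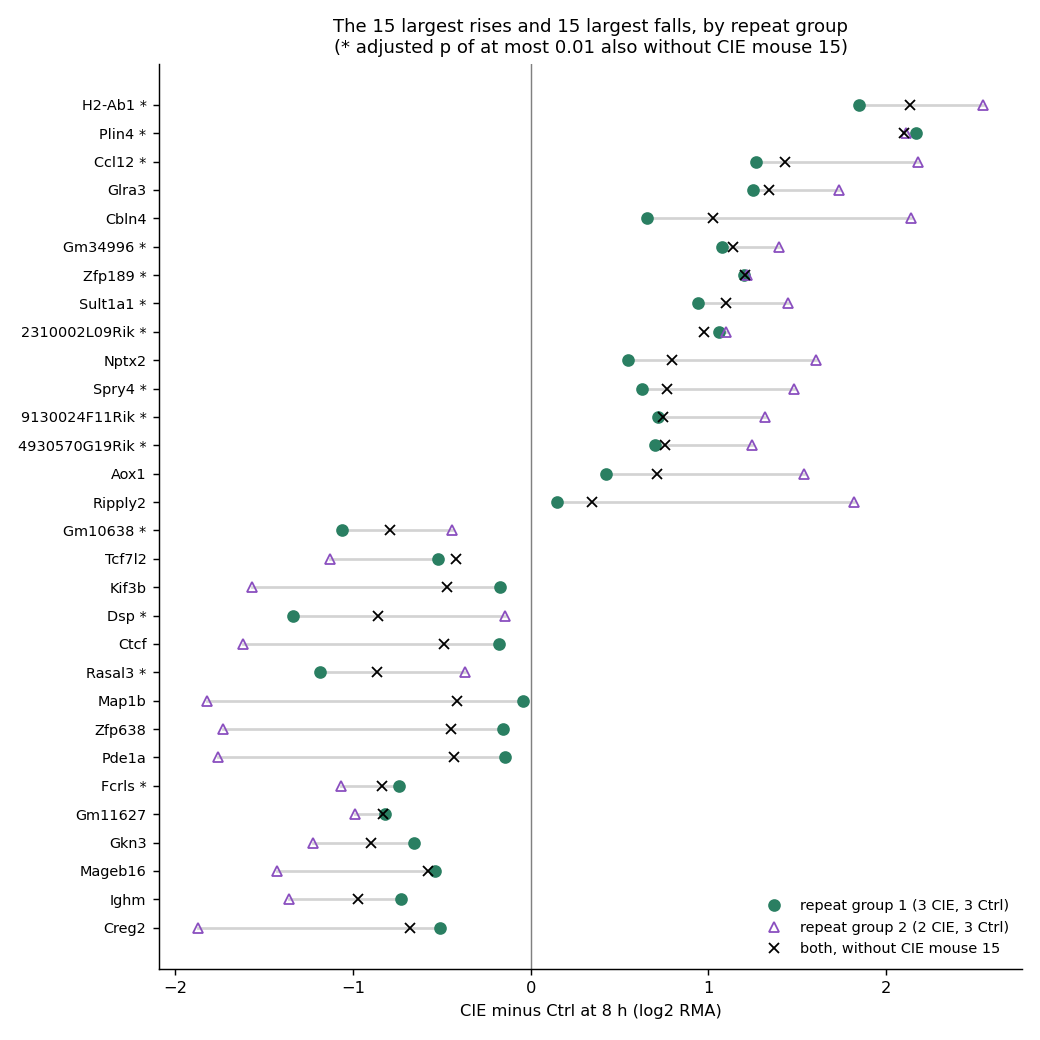
Difference CIE minus Ctrl at 8 h (log2 RMA) within repeat group 1 (filled circles) and repeat group 2 (open triangles), and in the fit without CIE mouse 15 (crosses), for the 15 largest rises and the 15 largest falls. The 2 repeat groups nearly coincide for Plin4, Zfp189 and 2310002L09Rik, and lie far apart for Map1b, Pde1a, Zfp638, Ctcf and Kif3b, whose differences in repeat group 1 are near 0.

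Among glucocorticoid-responsive genes, all changes that passed were rises. Of 32 measured members, 7 passed, all higher (4.12% of all genes were higher), and 28 were above 0. The list median was 0.31 against 0.02 over all genes, or 0.22 where each gene was read as the median of its probesets. Without mouse 15 the members that passed were Plin4, Sgk1, Sult1a1 and Arrdc2, and the median was 0.29. The median deviation from the Ctrl mean of the same repeat group was 0.24, 0.24 and 0.08 in CIE mice 40, 51 and 69 and 0.42 and 0.42 in mice 15 and 23, above 0 in every CIE mouse. Sgk1, a kinase that regulates ion channels and transporters, was at 12.42, 12.73, 12.09, 12.83 and 12.86 in the CIE mice, against 11.47 to 11.93 (median 11.79) in Ctrl mice. Every CIE mouse exceeded every Ctrl mouse, with a rise of 0.88 ± 0.17 (adjusted p = 0.000497). Arrdc2, an arrestin-domain protein, was at 7.92, 8.33, 7.24, 7.65 and 8.11 in the CIE mice against 6.86 to 7.22 (median 6.96), a rise of 0.87 ± 0.20 (adjusted p = 0.00273). Its lowest CIE mouse, 69, lay at the edge of the Ctrl range without crossing it. Fkbp5, the cochaperone that restrains the glucocorticoid receptor, rose by 0.42 ± 0.10 (adjusted p = 0.00501), Cdkn1a, a cell cycle inhibitor, by 0.78 ± 0.18 (adjusted p = 0.00376), and Lcn2, a siderophore-binding protein released in inflammation, by 0.30 ± 0.08 (adjusted p = 0.00764). Without mouse 15 these differences were 0.42, 0.73 and 0.31, with adjusted p-values of 0.0212, 0.0221 and 0.023. Mice of the 0 h groups, with their own controls, had a list median of 0.30, and Plin4, Sgk1 and Arrdc2 differed by 2.54, 0.61 and 1.26 there. At 72 h the list median was -0.08 and at 7 d -0.06.

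The promoter of Sgk1 holds the palindromic letters read by the glucocorticoid receptor, and is shown because Sgk1 is the member with both a rise and a match. The motif searched was GNACANNNTGTNC on either strand, in the 250 bases before and 50 after each gene's start (RefSeq, GRCm38.p6). It stood in 4 of 26 list members with a promoter sequence, 15.4%, and in 0.537% of 27025 genes. Capitals mark the match, 188 to 176 bases before the start, in a window at chr10:21993682-21993734 on the plus strand.
Sgk1: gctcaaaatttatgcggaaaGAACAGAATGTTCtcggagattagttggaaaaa
The other 3 genes with the motif, Mt1, Map3k6 and Fam107a, did not pass at 8 h (differences of 0.07, 0.03 and 0.11), and the median difference was 0.09 over the 4 members with the motif and 0.33 over those without it.

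ER chaperones and genes of the unfolded protein response, which expand folding and degradation capacity when misfolded proteins accumulate in the ER, were next. Of 31 members, 8 passed and all were higher (4.12% of all genes were), with a list median of 0.15, or 0.06 where each gene was read as the median of its probesets. Dnajb9 and Syvn1 passed without mouse 15, where 1.24% of all genes were higher, and the median was then 0.16. Dnajb9, a cochaperone of the ER chaperone BiP, was at 11.49, 11.52, 11.52, 12.04 and 11.80 in the CIE mice and Ctrl mice ran from 11.17 to 11.30 (median 11.18). The groups were apart, with a rise of 0.49 ± 0.07 (adjusted p = 2.11e-05) and of 0.41 without mouse 15 (adjusted p = 0.000587). Syvn1, a ubiquitin ligase of ER-associated degradation, was at 9.32, 9.28, 9.41, 9.64 and 9.44 in the CIE mice against 8.98 to 9.14 (median 9.09), a rise of 0.36 ± 0.06 (adjusted p = 0.000139) that was 0.31 without mouse 15. Xbp1, the transcription factor at the center of the response, rose by 0.30 ± 0.06, Hyou1, an ER chaperone, by 0.48 ± 0.11, Trib3, a pseudokinase induced by ER stress, by 0.39 ± 0.08, and Ddit3, the stress transcription factor CHOP, by 0.25 ± 0.07. Derl1 and Derl3, channel proteins of ER-associated degradation, rose by 0.37 ± 0.09 and 0.62 ± 0.16. For these 6 genes the differences without mouse 15 were 0.23, 0.32, 0.32, 0.24, 0.34 and 0.44, all still above 0, with adjusted p-values from 0.0134 to 0.094. Hspa5, which encodes BiP itself, differed by 0.17 ± 0.09 (adjusted p = 0.185): the 3 CIE mice of repeat group 1 were at 12.97, 13.01 and 13.16, above all Ctrl mice (12.52 to 12.86 (median 12.59)), and mice 15 and 23 were at 12.57 and 12.49. At 0 h the list median was 0.05.

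These promoters are shown because they hold the ER stress response element, the letters recognized by the activated transcription factors of this pathway. The element, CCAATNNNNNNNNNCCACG on either strand, stood in 9 of 27 members with a promoter sequence (33.3%) and in 37 of 27025 genes (0.137%). The median difference at 8 h was 0.22 over the 9 members with the element and -0.02 over the 18 without it. Capitals mark the element, which lies on the opposite strand in Derl3 and Calr.
Syvn1: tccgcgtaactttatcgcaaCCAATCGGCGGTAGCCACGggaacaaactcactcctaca
Derl3: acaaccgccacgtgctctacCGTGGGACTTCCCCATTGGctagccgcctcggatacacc
Dnajc3: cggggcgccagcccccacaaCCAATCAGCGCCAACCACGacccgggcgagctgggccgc
Calr: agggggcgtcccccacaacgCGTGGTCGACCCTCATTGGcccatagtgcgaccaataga
Hspa5: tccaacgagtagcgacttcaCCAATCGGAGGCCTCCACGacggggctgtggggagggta
The windows lie at chr19:6046512-6046570, chr10:75893222-75893280, chr14:118937807-118937865, chr8:84847055-84847113 and chr2:34772005-34772063 (GRCm38.p6), with Calr alone of the 5 on the minus strand. Syvn1 and Derl3 passed the test, whereas Dnajc3 and Calr, a cochaperone and a calcium-binding chaperone, differed by 0.34 ± 0.10 (adjusted p = 0.0159) and 0.28 ± 0.08 (adjusted p = 0.0119). Of the matches not shown, Creld2, Hsp90b1, Canx and Pdia6 differed by 0.22, 0.15, 0.07 and -0.04 and did not pass. Dnajb9, Hyou1 and Xbp1, which passed, were not among the matches. A match describes the letters of a promoter and not a bound site.

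Among genes of cholesterol synthesis, all changes that passed were falls. Of 18 members, 5 passed (2.39% of all genes were lower), with a median of -0.15 that was -0.12 without mouse 15 and -0.08 over all probesets of each gene. Cyp51, the sterol demethylase, was at 9.74, 9.87, 9.94, 9.84 and 9.68 in the CIE mice against 10.03 to 10.18 (median 10.14) in Ctrl. It fell by 0.31 ± 0.06 (adjusted p = 0.00127), with no overlap and a similar value without mouse 15 (-0.32, adjusted p = 0.00466). The other 4 lost the call without that mouse: Sqle, the squalene epoxidase, fell by 0.36 ± 0.09, Hmgcs1, the synthase that makes HMG-CoA, by 0.25 ± 0.06, Sc5d, a desaturase, by 0.53 ± 0.12, and Hsd17b7, a sterol reductase, by 0.71 ± 0.19. Without mouse 15 the values were -0.30, -0.18, -0.41 and -0.34. Sqle and Sc5d were lower in all 5 CIE mice than in any Ctrl mouse, whereas for Hsd17b7 the repeat groups gave -0.06 and -1.53. Among 16 genes of sterol sensing, uptake and export, Insig2, a membrane protein that holds back sterol-regulated transcription, and Stard4, a cholesterol carrier, fell by 0.69 ± 0.17 and 0.36 ± 0.09, and neither passed without mouse 15. The sterol response element TCACNCCAC was found in 1 of 15 promoters of the synthesis list and in 1.44% of all genes. It is shown for Hmgcs1, 137 to 129 bases before the start, in a window at chr13:119690194-119690242 on the plus strand.
Hmgcs1: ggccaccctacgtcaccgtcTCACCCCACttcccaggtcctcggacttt

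**Figure D3:**
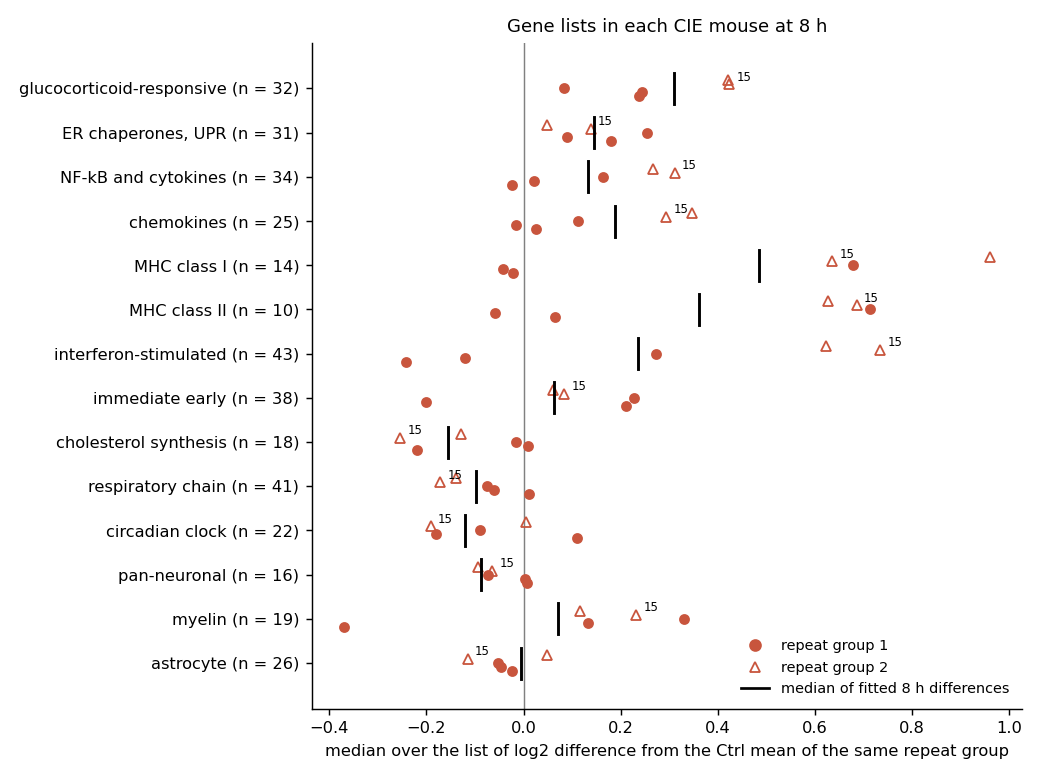
Median over each gene list of the log2 difference between a CIE mouse and the mean of the Ctrl mice of its repeat group, for 14 lists, with filled circles for repeat group 1, open triangles for repeat group 2, mouse 15 marked, and a bar at the median of the fitted differences. All 5 mice lie above 0 for the glucocorticoid and ER lists, while the MHC class I and interferon lists split into mice 69, 15 and 23 above 0 and mice 40 and 51 below it.

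Cytokine and feedback genes of innate immunity came next. In the list of NF-kB feedback genes and cytokines, 6 of 34 members passed, all higher (4.12% of all genes were higher), with a median of 0.13 (0.07 without mouse 15). The median was 0.01 in repeat group 1 and 0.32 in repeat group 2, and without mouse 15 Il1rn alone passed. Il1rn, the secreted antagonist of the interleukin 1 receptor, was at 4.91, 4.93, 4.96, 5.07 and 5.04 in the CIE mice against 4.38 to 4.79 (median 4.57), low on the array in both groups but without overlap, and rose by 0.42 ± 0.10 (adjusted p = 0.00279), or 0.44 without mouse 15 (adjusted p = 0.00999). Socs3, an inhibitor of cytokine signaling, rose by 0.50 ± 0.10, the cytokine gene Il1a by 0.46 ± 0.10, Nfkbiz, an NF-kB cofactor, by 0.61 ± 0.14, Tgfb1 by 0.38 ± 0.09 and Ptgs2, the inducible cyclooxygenase, by 0.80 ± 0.21. Without mouse 15 these 5 differed by 0.39, 0.39, 0.45, 0.31 and 0.67, and their adjusted p-values ran from 0.0151 to 0.0571. Ccl12 was the single member of 25 chemokines and receptors to pass, while Ccl2, which attracts monocytes as Ccl12 does, differed by -0.42 ± 0.15 (adjusted p = 0.0398). In the complement list of 12, the C3a receptor gene C3ar1 rose by 0.44 ± 0.09 (adjusted p = 0.00117), from 5.01 to 5.69 (median 5.41) in Ctrl to 5.70, 5.77, 5.85, 5.92 and 5.78 in the CIE mice, and by 0.46 without mouse 15 (adjusted p = 0.00459).

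All 10 MHC class II genes were above 0 and H2-Ab1 alone passed (4.12% of all genes were higher). Its partner chain H2-Aa was at 5.55, 4.89, 6.86, 5.71 and 7.07 in the CIE mice against 4.53 to 5.49 (median 4.82), a difference of 1.16 ± 0.36 (adjusted p = 0.0231). Mice 40 and 51 lay within or close to the Ctrl range and mice 69, 15 and 23 above it. H2-Eb1 and the invariant chain Cd74 differed by 1.51 ± 0.48 and 0.82 ± 0.33 (adjusted p = 0.0265 and 0.0807). Ctrl mouse 66 held the highest Ctrl level of H2-Aa, H2-Eb1 and Cd74, at 5.49, 7.46 and 8.09. In limma 0 of 14 MHC class I genes passed, with 8 at an unadjusted p under 0.05, where at least 7673 of all 45037 probesets lay. The list median was 0.48, or 0.20 over all probesets of each gene. The median was 0.18 in repeat group 1 and 0.80 in repeat group 2. H2-K1, a classical class I heavy chain, was at 10.86, 10.90, 12.24, 11.59 and 11.85 in the CIE mice against 10.07 to 11.24 (median 10.35), a difference of 1.06 ± 0.29 (adjusted p = 0.0114), and H2-D1 differed by 1.16 ± 0.34 (adjusted p = 0.018). The highest Ctrl levels of H2-K1 and H2-D1, 11.24 and 7.66, were again those of mouse 66. Class I genes resemble one another, and probesets for them can bind transcripts of more than 1 gene.

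Interferon-stimulated genes, which encode antiviral proteins, had a median of 0.24, with 37 of 43 members above 0. Of the 43, 1 passed, beside 4.12% of all genes higher. It was the RNA sensor gene Ddx58 (0.48 ± 0.13, adjusted p = 0.00781, and 0.37 with adjusted p = 0.0809 without mouse 15). The list median was -0.02 in repeat group 1 and 0.66 in repeat group 2. By mouse, the mean level of the list was 6.99 and 7.10 in CIE mice 40 and 51, 7.56 in mouse 69 and 7.62 and 7.69 in mice 15 and 23. Among the Ctrl mice, mouse 66 was at 7.75 and the other 5 reached at most 7.01, so that CIE mice 40 and 51 lay close to those 5 and Ctrl mouse 66 lay above every CIE mouse. Without Ctrl mouse 66 the list median was 0.38 and 4 members passed, Ddx58, Gbp3, Irf9 and Rtp4, and 3 class I genes, H2-K1, H2-D1 and Tap1, also passed. Over the whole array 2419 of 45037 probesets passed without Ctrl mouse 66, 1561 higher and 858 lower. So did 27 of the 30 largest changes, and Cxcl10 and Fcgr3 newly passed. Of 165 named probesets, 150 kept their side of the threshold, 5 newly passed and 10 no longer passed, among them those of Fkbp5, Lcn2, Ddit3 and Ptgs2. Igtp, an interferon-induced GTPase, was at 8.94, 8.37, 10.69, 9.78 and 10.69 in the CIE mice against 7.80 to 10.30 (median 8.16) in Ctrl, the highest being mouse 66, and its difference of 1.23 ± 0.49 did not pass (adjusted p = 0.074). Iigp1, Gbp3 and Ifit1 differed by 1.35, 0.86 and 0.78 (adjusted p = 0.0991, 0.0342 and 0.0829), and Ctrl mouse 66 was at 9.05, 8.69 and 7.64 for them. The interferon-stimulated response element GAAANNGAAA stood in 16 of 32 members with a promoter sequence (50.0%) and in 3.99% of all genes, with median differences of 0.50 over members that hold it and 0.24 over those that do not.

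Microglia are the resident macrophages of the brain, and 5 of 19 genes of their resting state passed, in both directions, beside 4.12% of all genes higher and 2.39% lower. Fcrls, P2ry12 and Itgam fell and Cd33 and Sall1 rose. P2ry12, the purinergic receptor that guides microglial processes, was at 8.79, 8.92, 9.23, 8.41 and 8.80 in the CIE mice against 9.26 to 9.69 (median 9.34), without overlap, and fell by 0.58 ± 0.12 (adjusted p = 0.001), with a difference of -0.46 without mouse 15 (adjusted p = 0.0174). Itgam, an integrin of myeloid cells, fell by 0.73 ± 0.18 (-0.52 without mouse 15, adjusted p = 0.0657). Cd33, an inhibitory sialic acid receptor, was at 5.96, 5.81, 6.07, 5.92 and 6.08 in the CIE mice against 4.80 to 5.49 (median 5.33), a rise of 0.77 ± 0.13 (adjusted p = 0.000174) that held without mouse 15 (0.85, adjusted p = 0.00049). Sall1, a transcription factor of microglial identity, rose by 0.61 ± 0.16, with mouse 15 at 8.45 and the other 4 CIE mice at 6.74 to 7.20, and by 0.35 without mouse 15 (adjusted p = 0.118). Tmem119 and Cx3cr1, further markers of resting microglia, differed by 0.27 ± 0.11 and -0.28 ± 0.10 and did not pass, and the list median was -0.01 (0.05 without mouse 15). In limma 0 of 19 genes of activated microglia and macrophages passed, with 7 at an unadjusted p under 0.05, where at least 7673 of all 45037 probesets lay. The nearest were the Fc receptor gene Fcgr3 (0.43 ± 0.12, adjusted p = 0.0151) and Clec7a (0.51 ± 0.18, adjusted p = 0.0452). In bulk tissue, fewer cells of a type and less RNA per cell cannot be told apart.

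Immediate early genes are switched on within minutes by neuronal activity. At 8 h, 6 of 38 passed, all higher (4.12% of all genes were higher), and the list median was 0.06. Egr3, a transcription factor induced by synaptic activity, was at 11.98, 11.69, 12.30, 12.87 and 12.08 in the CIE mice against 11.05 to 11.74 (median 11.36), a rise of 0.80 ± 0.16 (adjusted p = 0.000693), with mouse 51 alone inside the Ctrl range. Nptx2 was at 9.10, 9.53, 9.73, 10.26 and 9.63 in the CIE mice against 7.96 to 9.09 (median 8.64), without overlap. Maff and Homer1, a transcription factor and a postsynaptic scaffold, rose by 0.62 ± 0.15 and 0.31 ± 0.07, and Rheb, the GTPase that activates mTOR, by 0.27 ± 0.05 (adjusted p = 0.000209). Without mouse 15, Rheb passed (0.21, adjusted p = 0.00488), as did Jund, which had not passed with it, so that 2 of 38 passed (1.24% of all genes were higher there) and the list median was -0.01. Egr3, Maff, Homer1, Nptx2 and Ptgs2 lost the call, and the differences of Egr3, Maff and Homer1 were 0.57, 0.40 and 0.25 (adjusted p = 0.0163, 0.0834 and 0.0428). Fos, Arc and Egr1, the most used markers of recent activity, did not pass and differed by -0.17 ± 0.39, -0.21 ± 0.37 and -0.05 ± 0.15 at 8 h (adjusted p = 0.798, 0.735 and 0.848). At 0 h, in other mice, the list median was -0.61.

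The difference between the 8 h and the 0 h effects was itself tested, with each time point set against its own Ctrl mice. It passed for 445 genes in the positive direction (2.45%) and 337 in the negative (1.85%), and 670 genes passed without mouse 15. In the immediate early list it passed for 10 of 38 members, all positive. The largest positive differences were those of Nptx2 (1.85, adjusted p = 0.000351), Spry4 (1.82, adjusted p = 1.28e-05), Ccl12 (1.75, adjusted p = 0.00689) and AU015791 (1.54, adjusted p = 4.51e-06). At 0 h the differences of Nptx2 and Spry4 were -0.83 and -0.82 (adjusted p = 0.0111 and 0.00128), opposite in sign to those at 8 h. Egr3 changed side in the same way, from -0.65 to 0.80, with a difference of 1.45 (adjusted p = 3.04e-05). For Bdnf, the neurotrophin gene, Klf10 and Dusp4, the effect at 0 h was -1.07, -1.24 and -1.17 and at 8 h -0.04, 0.26 and 0.33, and the differences of 1.03, 1.50 and 1.50 passed (adjusted p = 0.00244, 9.28e-06 and 0.000801). Without mouse 15 the difference was 1.62 for Nptx2 (adjusted p = 0.0018), 1.58 for Spry4 (adjusted p = 6.53e-05) and 1.51 for Ccl12, which no longer passed (adjusted p = 0.0254). The largest negative differences were those of Gm10638 (-1.32), the clock gene Ciart (-1.13), Fam222a (-1.11) and Mro (-1.04). The median of the striatal neuron list, a sign of tissue from beneath the cortex, was 0.59 at 0 h, 0.08 at 8 h and 0.40 at 72 h, and its part in these differences was not tested.

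**Figure D4:**
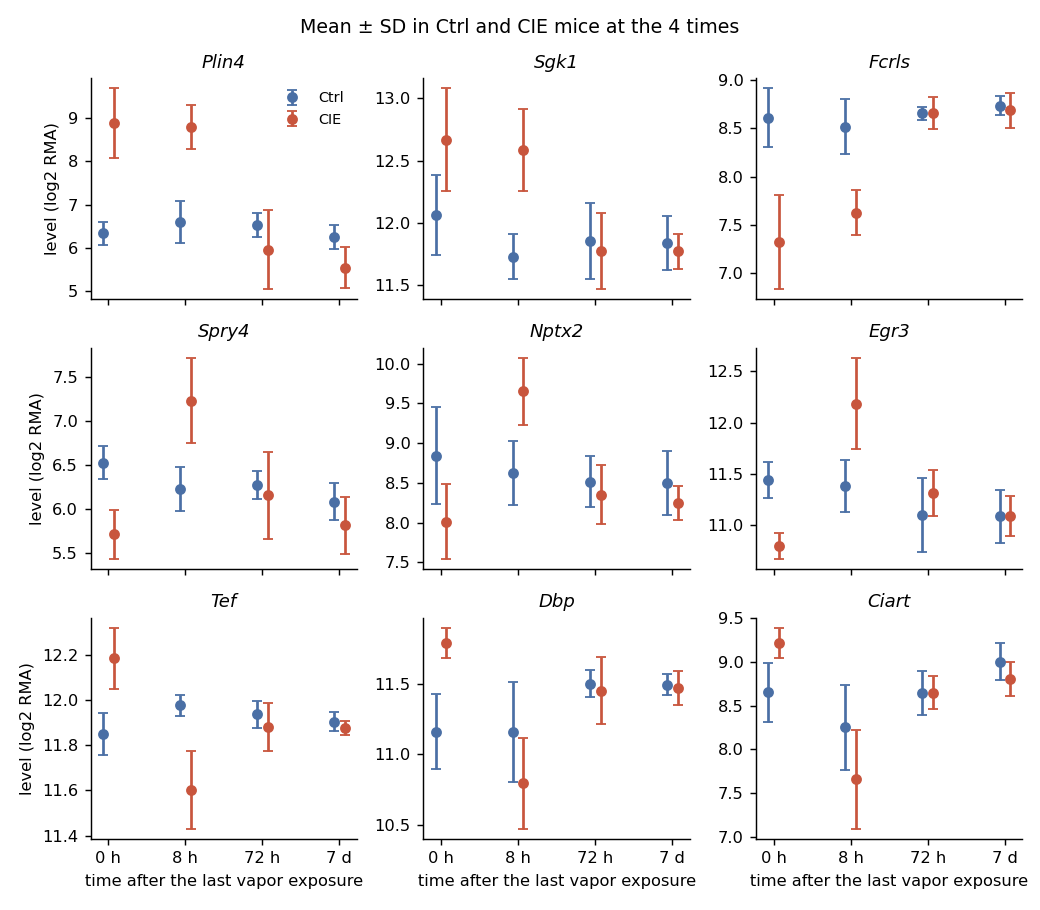
Mean ± SD level (log2 RMA) of 9 genes in Ctrl and CIE mice at 0 h, 8 h, 72 h and 7 d, with 6 mice a group and 5 CIE mice at 8 h. Plin4, Sgk1 and Fcrls differ in the same direction at 0 h and 8 h, Spry4, Nptx2 and Egr3 are below Ctrl at 0 h and above it at 8 h, and Tef, Dbp and Ciart are above Ctrl at 0 h and below it at 8 h.

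Clock genes differed in their response between 0 h and 8 h. The circadian clock is a transcriptional loop in which Clock or Npas2 pairs with Arntl to switch on Per and Cry genes, which then repress it, and output factors such as Dbp and Tef. Of 22 members, 3 rose and 1 fell at 8 h, beside 4.12% of all genes higher and 2.39% lower. Tef was at 11.72, 11.75, 11.69, 11.34 and 11.52 in the CIE mice against 11.93 to 12.04 (median 11.96), without overlap, and fell by 0.38 ± 0.06 (adjusted p = 5.97e-05), and its difference was -0.31 without mouse 15 (adjusted p = 0.00146). Clock, Npas2 and Cry1 rose by 0.34 ± 0.08, 0.44 ± 0.10 and 0.54 ± 0.13, and their adjusted p-values were 0.0303, 0.0235 and 0.0462 without mouse 15. Lower values that did not pass were found for Ciart (-0.56 ± 0.18, adjusted p = 0.0319), Cry2 (-0.44 ± 0.16, adjusted p = 0.0479), Nr1d1 (-0.43 ± 0.15, adjusted p = 0.0408), Bhlhe41 (-0.36 ± 0.12, adjusted p = 0.0262) and Dbp (-0.34 ± 0.12, adjusted p = 0.0544). Per1, Per2 and Arntl differed by 0.21, 0.30 and 0.25 and did not pass, as did Per3 at -0.11. The effect at 8 h less that at 0 h passed for 6 members, 2 positive and 4 negative, where 2.45% and 1.85% of all genes passed: it was -0.72 for Tef (adjusted p = 1.57e-06), -0.97 for Dbp (adjusted p = 0.000263), -1.13 for Ciart (adjusted p = 0.00292), -0.32 for Nr1d2, 0.44 for Clock and 0.86 for Nfil3, a repressor that opposes Dbp and Tef at shared sites. At 0 h Tef and Dbp were higher in CIE by 0.34 and 0.63, and Ciart differed by 0.57 (adjusted p = 0.0209). Without mouse 15 the difference for Ciart was -0.82 and had an adjusted p of 0.0137, against 6.12e-06 for Tef and 0.00134 for Dbp, and that for Nfil3 was 0.0211. Clock did not pass there either (0.36, adjusted p = 0.0175), whereas Nr1d2 did (-0.35, adjusted p = 0.000333).

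Among receptor, channel and peptide genes of neurons, the members that passed are set against 4.12% of all genes higher and 2.39% lower. Besides Glra3, the 1 of 8 glycine receptor and transporter genes that passed, the GABA-A receptor subunit Gabra4 was the single one of 13 subunit and scaffold genes to pass, at 11.33, 11.30, 11.25, 11.60 and 11.54 in the CIE mice against 11.05 to 11.24 (median 11.12), a rise of 0.29 ± 0.07 (adjusted p = 0.00339, and 0.0263 without mouse 15). In limma 0 of 19 ionotropic glutamate receptor genes passed, with 8 at an unadjusted p under 0.05, where at least 7673 of all 45037 probesets lay. The nearest were the kainate receptor subunits Grik3 (0.61 ± 0.18, adjusted p = 0.0175) and Grik1 (0.40 ± 0.12, adjusted p = 0.0201). Of 34 potassium channel genes, Kcna3 fell by 0.53 ± 0.11 and Kcnt2 rose by 0.80 ± 0.17, where mouse 15 was at 10.71 and the highest Ctrl mouse at 8.95. Without mouse 15 their adjusted p-values were 0.0103 and 0.0292. Among 26 stress and modulatory neuropeptide genes, Gal, the precursor of galanin, rose by 0.28 ± 0.06 from a low level (4.32 to 4.63 (median 4.49) in Ctrl), and Sst, the precursor of somatostatin made by a class of interneurons, fell by 0.30 ± 0.07. Without mouse 15 neither passed, at 0.24 (adjusted p = 0.0272) and -0.24 (adjusted p = 0.0362). Gal had differed by -0.27 at 0 h, and its 8 h effect less that at 0 h was 0.55 (adjusted p = 8.15e-05).

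Most genes of the mitochondrial respiratory chain, which makes ATP, lay slightly below 0. Of 41 genes of the respiratory chain, 36 had a negative difference and 4 passed, all lower (2.39% of all genes were lower), with a median of -0.10 (-0.08 without mouse 15 and -0.06 over all probesets of each gene). Uqcrfs1, the iron-sulfur subunit of complex III, was at 12.06, 12.04, 12.00, 12.04 and 11.99 in the CIE mice against 12.21 to 12.35 (median 12.27), without overlap, and fell by 0.25 ± 0.05 (adjusted p = 0.000688), and its difference was -0.26 without mouse 15 (adjusted p = 0.00237). Cycs, Ndufs1 and Sdhc fell by 0.34, 0.22 and 0.21, with adjusted p-values of 0.0326, 0.0689 and 0.0286 without mouse 15. In the proteasome list of 30, Psmd7, Psmd12 and Psmb6 fell by 0.64, 0.18 and 0.17 and Psmc4 rose by 0.44, and none passed without mouse 15, with a median of 0.02 in repeat group 1 and -0.18 in repeat group 2.

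Markers of cell types and of neighboring tissue were examined for a shift in what was dissected. The counts given here stand beside 4.12% of all genes higher and 2.39% lower at 8 h. In limma 0 of 16 pan-neuronal genes, 0 of 19 myelin and oligodendrocyte genes and 0 of 19 striatal neuron genes passed. Of these, 7, 3 and 1 had an unadjusted p under 0.05, where at least 7673 of all 45037 probesets lay. The pan-neuronal list includes the excitatory cortical markers Slc17a7, Neurod6 and Camk2a. Its mean level was 12.33 to 12.41 in Ctrl mice and 12.39, 12.35, 12.28, 12.19 and 12.27 in the CIE mice. CIE mice 69, 15 and 23 lay below every Ctrl mouse. The myelin list ran from 10.10 to 10.38 in Ctrl mice and was at 9.78 in CIE mouse 40 and 10.35 to 10.51 in the other 4. For the striatal list the range was 7.96 to 8.36 in Ctrl mice and 7.95 to 8.53 in CIE mice, with the highest in mouse 23, and the striatal genes Drd1 and Ppp1r1b differed by -0.05 ± 0.33 and -0.11 ± 0.27. Among 26 astrocyte genes, the neurotensin receptor gene Ntsr2 fell by 0.40 ± 0.07 (adjusted p = 0.000208, and -0.32 with adjusted p = 0.00474 without mouse 15) and the transporter gene Slco1c1 by 0.33 ± 0.08 (-0.27 with adjusted p = 0.0376 without mouse 15), with a list median of -0.01, or -0.12 over all probesets of each gene. Of 19 endothelial genes, Mfsd2a, the lipid transporter of the blood-brain barrier, rose by 0.66 ± 0.10 (adjusted p = 4.23e-05), from 7.98 to 8.40 (median 8.11) in Ctrl to 9.12, 8.65, 8.54, 8.92 and 8.67 in the CIE mice, and Sox17, a transcription factor of arterial endothelium, fell by 0.48 ± 0.11 (adjusted p = 0.00378), and both held without mouse 15. Of 18 choroid plexus, ependymal and meningeal genes Clic6 rose by 0.66 ± 0.10 (adjusted p = 5.98e-05), and the list mean was highest in Ctrl mouse 66, at 6.36, against at most 6.03 in the other Ctrl mice and 5.84 to 6.29 in CIE mice. Of 5 red blood cell genes Alas2, the heme synthesis enzyme of red cell precursors, was at 5.30, 5.05, 4.79, 5.18 and 5.13 in the CIE mice against 5.36 to 6.04 (median 5.96) and fell by 0.77 ± 0.15 (adjusted p = 0.00076). The part of tissue composition in the other results was not tested.

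The effect of ethanol differed between the repeat groups at 594 genes (3.26%), or 1921 probesets. Without mouse 15 the difference passed at 11 genes and 36 probesets. The largest negative interactions, repeat group 2 less repeat group 1, were those of Kcnj9, a G protein-gated potassium channel (-2.31, adjusted p = 0.00608), Gnal, the G protein alpha subunit of olfactory and striatal neurons (-2.27), Thoc2l (-2.23) and Ano3 (-2.20), and the largest positive those of 4930503L19Rik (1.87), Zfp119b (1.84), 2310069B03Rik (1.81) and Zfp317 (1.77). Kcnj9 was at 9.90, 9.64, 9.85, 6.20 and 8.42 in the CIE mice, and Ctrl mice ran from 9.48 to 10.31 (median 9.92). Mouse 15 and, less so, mouse 23 lay below all other mice. The interaction for Kcnj9 was -1.21 without mouse 15 (adjusted p = 0.236), and of these 8 genes 2310069B03Rik still passed (1.63, adjusted p = 0.00941).

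Some of the largest changes lay in probesets that were not their gene's brightest, 31 of which passed with a change over 1. Of 34945 probesets with 1 gene symbol, 18193 were brightest, and 1221 of the rest passed, beside 6.67% of all probesets. Of the 1221, 117 had a brightest probeset that passed, and 535 differed in sign from their gene's brightest. The same shares among dim probesets that did not pass are not given, so these counts have no baseline. A dim probeset of Ywhaz, a 14-3-3 adaptor protein, rose by 1.76 ± 0.25 (adjusted p = 2.04e-05) while the brightest differed by -0.10 ± 0.06, and it held without mouse 15 (1.14, adjusted p = 1.66e-05). For Etnppl, an enzyme of phosphoethanolamine breakdown in astrocytes, the values were 1.38 ± 0.21 (adjusted p = 4.76e-05) and 0.52 ± 0.23 (adjusted p = 0.11), and the dim probeset also held (1.33, adjusted p = 0.000633). The other 6 of the 8 largest did not pass without mouse 15: dim probesets of Tspyl1, Cdk5r1, Rasgrp1, Epha4 and Hspa12a fell by 1.64, 1.44, 1.43, 1.24 and 1.20, beside 0.32, -0.03, -0.07, -0.71 and -0.29 on the brightest probeset, and one of Sephs2 rose by 1.32 beside 0.40. Of the 31, 14 passed without mouse 15, all of them higher.

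Against the later times, the 8 h effect stood out most for Plin4. The effect at 8 h less that at 72 h passed for 1 gene of 18193 (0.0055%), Plin4, at 2.71 (adjusted p = 0.00451), and without mouse 15 Plin4 was at 2.67 and did not pass (adjusted p = 0.0215). Less that at 7 d it passed for 340 genes in the positive direction (1.87%) and 211 in the negative (1.16%), and for 365 without mouse 15. Plin4 again had the largest positive difference, 2.85 (adjusted p = 0.000133), its own CIE effect being -0.56 at 72 h and -0.71 at 7 d (adjusted p = 0.384 and 0.183). Ccl12 (1.73), Gm34996 (1.58) and 9630013A20Rik (1.35) followed. The largest negative differences were those of Rasal3 (-1.29, adjusted p = 0.000133), Rps6kb2, a ribosomal protein S6 kinase (-1.22), Gm10638 (-1.21) and Mpst, a sulfurtransferase (-1.07). The rise of H2-Ab1 was present at 0 h too (1.75, adjusted p = 0.00341), as was the fall of Fcrls (-1.29, adjusted p = 2.51e-07), and their differences were 0.37 and 0.00 at 72 h and 0.87 (adjusted p = 0.257) and -0.05 at 7 d.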

How the data were processed

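Medial PFC of 47 mice was hybridized to Affymetrix Mouse Genome 430 2.0 arrays, 1 mouse per array. The authors deposited log2 expression values, made by RMA within each hybridization batch, quantile normalization across arrays and ComBat adjustment for repeat group in the PFC, with RMA named in the submitters' processing notes and software versions not given in the sources used here. Values therefore had already been adjusted for repeat group before it was fitted as a term here, and no columns of the authors' own comparisons were used. The series matrix held 45037 non-control probesets, with values from 2.82 to 14.66 and no 2 arrays identical. Platform annotation gave 1 gene symbol for 34945 probesets, several for 932 and none for 9160, and symbols were updated by Entrez identifier for 34741. Each of 18193 genes was read from its brightest probeset, the one with the highest mean over all arrays.

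The fit (limma 3.58.1 in R 4.3.3; Python 3.11.15 with numpy 2.4.6, pandas 2.3.3 and matplotlib 3.10.9 for tables and figures) had 8 group means and repeat group over all 47 arrays, 38 residual degrees of freedom and Benjamini-Hochberg adjustment over all probesets, with a threshold of 0.01. The scripts were tested on simulated data. Differences between time points were contrasts of the same fit. The difference in effect between repeat groups came from a separate fit that added an exposure by repeat group term. Within a repeat group, differences are of group means. The number of arrays limits the precision: the median SE of a difference at 8 h was 0.09. Genes named are the 15 largest rises and 15 largest falls with 1 sign in both repeat groups, up to 5 members of each list described that passed (2 of smallest p where none did), the 8 largest changes among probesets that are not the brightest, and the largest differences between time points and repeat groups. Other clock, activity, immune, ER, glucocorticoid, microglia and striatal genes were named for their known roles after their values were seen. The members and gene lists were chosen with earlier results of these data known. Alternatives were another threshold, no repeat group term, 8 h arrays alone, repeat group 1 alone, array weights, trended and robust moderation, repeated quantile normalization, a level of at least 6, all probesets of a gene, and leaving out each 8 h mouse. Promoters are from RefSeq (GRCm38.p6).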

Additional observations from a re-analysis of the deposited data

Results flagged for a closer look

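A level stood apart when its gap to the nearest mouse of its group, as a share of the group's range, exceeded Dixon's critical value. Chance passes this value in about 1 in 20 groups. CIE mouse 15 stood apart from the other CIE mice at 8 h with a log2 level of 6.14 for 2310002L09Rik, 9.64 for Aox1, 6.74 for Clic6, 7.01 for Creg2, 8.66 for Cry1, 5.27 for Kcna3, 8.45 for Sall1, 12.23 for Stmn2 and 4.10 for Tcf7l2. CIE mouse 23 stood apart from the other CIE mice at 8 h with a log2 level of 4.25 for Dsp. CIE mouse 69 stood apart from the other CIE mice at 8 h with a log2 level of 8.04 for Fcrls. Ctrl mouse 32 stood apart from the other Ctrl mice at 8 h with a log2 level of 6.00 for Bhlhe41, 11.30 for Dnajb9, 3.91 for Il1a, 10.72 for Slco1c1 and 4.85 for Zfp317. Ctrl mouse 42 stood apart from the other Ctrl mice at 8 h with a log2 level of 9.66 for Cx3cr1, 9.09 for Ddit3, 6.79 for Dusp4, 12.95 for Egr1, 8.95 for Kcnt2 and 5.66 for Plin4. Ctrl mouse 50 stood apart from the other Ctrl mice at 8 h with a log2 level of 5.36 for Alas2, 8.87 for Kif3b, 8.40 for Mfsd2a and 10.24 for Zfp638. Ctrl mouse 66 stood apart from the other Ctrl mice at 8 h with a log2 level of 8.69 for Gbp3, 5.49 for H2-Aa, 7.46 for H2-Eb1, 11.24 for H2-K1, 7.64 for Ifit1, 10.30 for Igtp, 9.05 for Iigp1 and 8.84 for Ppp1r1b. Ctrl mouse 75 stood apart from the other Ctrl mice at 8 h with a log2 level of 5.07 for Syndig1l. Ctrl mouse 79 stood apart from the other Ctrl mice at 8 h with a log2 level of 13.32 for Hmgcs1, 9.78 for Jun and 11.05 for Sc5d.

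The ethanol effect at 8 h less that at 0 h passed the limma test with a log2 difference of 1.09 for 2310002L09Rik, 1.54 for AU015791, 1.03 for Bdnf, 0.55 for C3ar1, 1.75 for Ccl12, 0.71 for Cd33, -1.13 for Ciart, 0.44 for Clock, -0.97 for Dbp, 0.39 for Dnajb9, 1.50 for Dusp4, 0.85 for Egr1, 1.45 for Egr3, -1.11 for Fam222a, 0.55 for Gal, -1.32 for Gm10638, 0.40 for Homer1, 0.63 for Il1a, 0.66 for Il1rn, -0.57 for Kcna3, 1.50 for Klf10, 0.51 for Lcn2, -1.04 for Mro, 0.86 for Nfil3, 1.85 for Nptx2, -0.32 for Nr1d2, 1.22 for Ptgs2, -1.03 for Rasal3, 0.30 for Rheb, -0.63 for Sc5d, -0.74 for Sox17, 1.82 for Spry4, -0.60 for Stard4, 0.32 for Syvn1 and -0.72 for Tef. The effect at 8 h less that at 7 d passed with a log2 difference of 1.35 for 9630013A20Rik, 1.73 for Ccl12, -1.21 for Gm10638, 1.58 for Gm34996, -1.07 for Mpst, 2.85 for Plin4, -1.29 for Rasal3 and -1.22 for Rps6kb2. The effect at 8 h less that at 72 h passed with a log2 difference of 2.71 for Plin4. The effect in repeat group 2 less that in repeat group 1 passed with a log2 difference of 1.81 for 2310069B03Rik, 1.87 for 4930503L19Rik, -2.20 for Ano3, -2.27 for Gnal, -2.31 for Kcnj9, -2.23 for Thoc2l, 1.84 for Zfp119b and 1.77 for Zfp317.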

How the results depend on the processing

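The count of 3004 probesets (1938 higher, 1066 lower) moved with the samples and the threshold. It was 7673 (4396 and 3277) at an FDR of 0.05, 1527 (1028 and 499) with no repeat group term, 512 (376 and 136) on the 8 h arrays alone, 1187 (615 and 572) in repeat group 1 alone and 8358 (4389 and 3969) with array weights, which gave mouse 15 a weight of 0.114. A level of at least 6 left 1184 higher. Leaving out 1 mouse gave 922 to 3311 in all, 600 to 2108 higher and 322 to 1203 lower, the lowest without mouse 15, and without Ctrl mouse 32 or 50 the lower count was 659 or 709. Chosen after seeing the data, the 8 h arrays without mouse 15 gave 839 (589 and 250) and the 6 arrays of repeat group 1 alone gave 4384, with 2160 lower. Of the 30 largest changes, 9, 6, 6 and 9 passed on 8 h arrays alone, in repeat group 1 alone, on 8 h arrays without mouse 15 and on the 6 arrays, and 14 to 30 with 1 mouse left out, 19 each without Ctrl mouse 32 or 50. With no repeat group term, 21 of the 30 passed.

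The interaction count of 1921 was 6243 at an FDR of 0.05 and 36 without mouse 15. The 8 h less 0 h count of 1996 was 5235 at 0.05. The 8 h less 72 h count of 2 was 1 with no repeat group term, 0 in repeat group 1 alone by limma, 230 at 0.05 and 1 without mouse 15. The 8 h less 7 d count of 1477 was 810 with no term, 5157 at 0.05 and 968 without mouse 15. The dim probeset of Rasgrp1 reversed, to 0.158, in repeat group 1 alone, whether all times or 8 h alone were fitted. Of 165 named probesets, 66 lost the call without mouse 15 and none reversed there, and 27 of 28 list medians then moved by less than the spread between mice, against 18 in repeat group 1 alone. With no repeat group term 37 named probesets lost the call. Among them were those of Ddit3, Derl1, Gabra4, Clock, Derl3, Ddx58, Gal and Hsd17b7, with limma adjusted p-values from 0.0117 to 0.0465. The causes of these lost calls were not tested. No paired analysis was possible because mouse numbers are not shared between groups. With 5 and 6 mice, differences near the SE of 0.09 were not detectable.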
